A study of Homo sapiens with 6 samples.

Results

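The genes described here are 8 core genes of the PI3K, AKT and mTOR pathway, namely IRS1, IRS2, PIK3CA, PIK3CB, PIK3R1, AKT1, AKT2 and MTOR, chosen by symbol from the 33007 genes of the deposited table. Each symbol matched a single row, and all 8 had enough counts to be tested. RNA-seq was performed on LM3 cells, an established human hepatocellular carcinoma (HCC) line labelled WT for genotype, in 3 vector control samples (control) and 3 samples with stable ZNF706 knockdown (knockdown). The knockdown lines of the study were made by lentiviral delivery of short hairpin RNA from the pLKO.1 vector and puromycin selection, and which hairpin these samples carried, or whether they came from separately infected cultures, is not given in the sources used here, so that p-values measure the spread between these samples, which may be technical. Control libraries held 62684076, 64713764 and 63054445 counts, and knockdown libraries 68548419, 65861994 and 69057423. ZNF706, the targeted gene, had CPM values (counts scaled to library size by the TMM method) of 51.9, 55.1 and 54.7 with the control vector and 33.5, 30.8 and 32.8 with the knockdown. The groups did not overlap, and ZNF706 fell by 0.73 on the log2 scale (standard error (SE) 0.050, edgeR quasi-likelihood test, adjusted p = 3.7e-05).

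In this pathway, activated insulin, IGF and growth factor receptors phosphorylate the adaptors IRS1 and IRS2, which recruit PI3K, a pair made of a regulatory subunit such as PIK3R1 and a catalytic subunit such as PIK3CA or PIK3CB. The lipid that PI3K makes brings AKT kinases to the membrane, where they are activated, and AKT relieves the inhibition of the kinase mTOR and keeps FOXO transcription factors out of the nucleus. The pathway is known in liver for the control of glucose output and lipid synthesis by insulin and, in HCC, for growth signalling. Its activity is set mainly by phosphorylation of proteins, which RNA-seq does not measure. In bulk RNA, a change in the number of cells that express a gene and a change in RNA per cell cannot be told apart.

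Of the 8 genes, 1 was called at an adjusted p below 0.05, and that gene was IRS2, which rose by 49.0% in the knockdown. This is 12.5% of the genes, beside 22.8% of the 18390 genes tested (10.4% higher, 12.4% lower) and 33.6% of the 11239 tested genes whose mean count reached that of PIK3R1, the lowest of the 8. The median absolute log2 fold change was 0.14 for the 8 genes and 0.20 for all tested genes. The criteria of the study ask for a p below 0.05 from DESeq2 and a change of 0.3 or more on the log2 scale in either direction. Here they were applied to the edgeR fit, with p taken as unadjusted. They were met by IRS2 alone of the 8, beside 15.5% of all tested genes. The control and knockdown values did not overlap for 4 of the 8 genes, PIK3CA, AKT1, MTOR and IRS2, beside 39.4% of all tested genes. For one gene taken alone, permuting 3 and 3 samples gives an exact two-sided p of 0.1 at best. The settings named with single genes here had other shares of all genes called, with 31.0% for DESeq2, 23.2% for scaling by library size alone, 31.5% for a mean count of 50 or more, 23.7% for the replicate number as a block, 21.4% with the trend on GC content removed (21.6% with the block as well), and 33.5% and 33.6% for limma on FPKM. With 1 sample left out it was 17.6%, 16.4% and 16.2% for control replicates 1, 2 and 3 and 18.0%, 13.9% and 17.5% for knockdown replicates 1, 2 and 3.

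**Figure D1:**
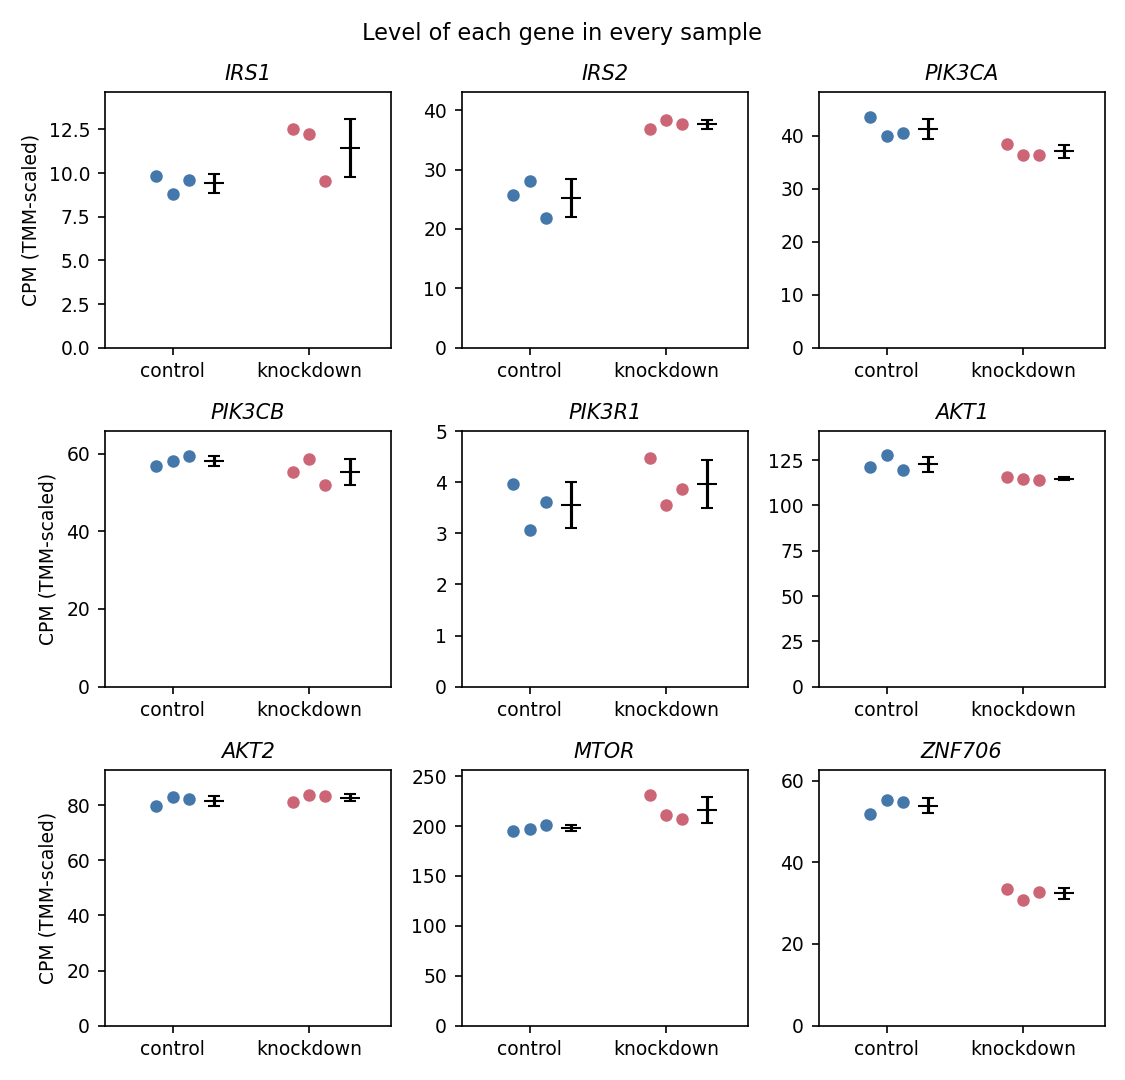
CPM, scaled by TMM, of the 8 genes and of ZNF706 in each of the 6 samples (vertical axes from 0, a separate scale for each gene). Points are samples, and bars are the mean ± SD (n = 3). The control points of IRS2 span 21.8 to 28.0 and its knockdown points 36.8 to 38.3, while for AKT2, PIK3CB, PIK3R1 and IRS1 the groups overlap.

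The promoters of the pair of IRS genes, the adaptors with the largest fold changes among the 8, and that of PIK3CA are shown to give the sequence around their start sites, from RefSeq (GRCh38.p14), in which all 8 genes were found with 14 windows in all. Each runs from 250 bases before to 50 bases after the annotated start, 5′ to 3′. Capitals mark matches on either strand to the letters GTAAACA (a FOXO motif), CACGTG (an E-box), TGACGTCA (a CRE) and GGGCGG (a GC box), overlapping matches included.
IRS1 promoter (chr2:226799771-226800070, minus strand): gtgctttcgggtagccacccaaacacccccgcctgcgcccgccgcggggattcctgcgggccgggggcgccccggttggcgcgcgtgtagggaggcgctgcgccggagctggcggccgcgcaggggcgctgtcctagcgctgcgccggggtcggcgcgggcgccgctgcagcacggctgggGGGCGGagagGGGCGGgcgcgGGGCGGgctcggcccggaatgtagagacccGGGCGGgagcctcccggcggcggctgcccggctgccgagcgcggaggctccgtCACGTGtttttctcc
IRS2 promoter (chr13:109786534-109786833, minus strand): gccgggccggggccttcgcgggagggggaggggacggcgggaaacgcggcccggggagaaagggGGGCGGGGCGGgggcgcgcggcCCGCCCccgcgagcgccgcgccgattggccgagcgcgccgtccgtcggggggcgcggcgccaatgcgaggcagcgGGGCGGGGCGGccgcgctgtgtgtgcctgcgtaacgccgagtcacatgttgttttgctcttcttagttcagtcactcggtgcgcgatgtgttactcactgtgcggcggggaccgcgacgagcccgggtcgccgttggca
PIK3CA promoter (chr3:179148107-179148406, plus strand): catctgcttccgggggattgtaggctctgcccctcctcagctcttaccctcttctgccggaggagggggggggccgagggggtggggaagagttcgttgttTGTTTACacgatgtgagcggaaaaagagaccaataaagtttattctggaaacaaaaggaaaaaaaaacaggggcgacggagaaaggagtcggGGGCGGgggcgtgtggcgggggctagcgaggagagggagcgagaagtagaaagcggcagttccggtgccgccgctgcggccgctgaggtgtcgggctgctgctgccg
The IRS2 window held 5 GC boxes and none of the other letters. In the IRS1 window there were 4 GC boxes and 1 E-box, and in the PIK3CA window 1 GC box and 1 FOXO motif. PIK3CA is shown because its window was the one with this motif, a choice made after the matches were seen, and the other 13 windows held none. GC boxes were found in 45.0% of the 35116 promoters of the table, E-boxes in 7.26%, the FOXO motif in 3.42% and the CRE in 1.85%. The GC content was 75.7% for IRS2, 79.3% for IRS1 and 60.7% for PIK3CA, beside a median of 58.7% over all promoters. A match describes the letters in this window and does not show a bound site.

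FPKM values, which the authors scaled to gene length and library size, allow the levels of different genes to be compared. In all 6 samples the order was MTOR (mean 14.9 FPKM), AKT1 (9.32), PIK3CB (6.32), AKT2 (4.52), IRS2 (3.39), PIK3CA (2.0), IRS1 (0.918) and PIK3R1 (0.303). The sample ranges of neighbours in this order did not overlap. The place of PIK3CA depended on the length used. The length implied by its FPKM was 19612 bases, 2.07 times the union of its exons in GENCODE release 29, where the median ratio over 6209 well-expressed genes was 1.14. Per kilobase of GENCODE exons the level of PIK3CA was 4.12, between 3.87 and 4.52 over the samples, and that of IRS2 was 3.87, between 2.61 and 4.79, and these ranges overlapped. On this scale PIK3CA lay above IRS2 in every control sample and below it in every knockdown sample. The counts came from the authors' gene model, whose implied length for PIK3CA was greater, so this level of PIK3CA may be too high. Of other regulatory subunit genes, PIK3R2 (13.3 FPKM) and PIK3R3 (5.60 FPKM) were listed above PIK3R1 and PIK3R5 (0.0083 FPKM) and PIK3R6 (0) below it.

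**Figure D2:**
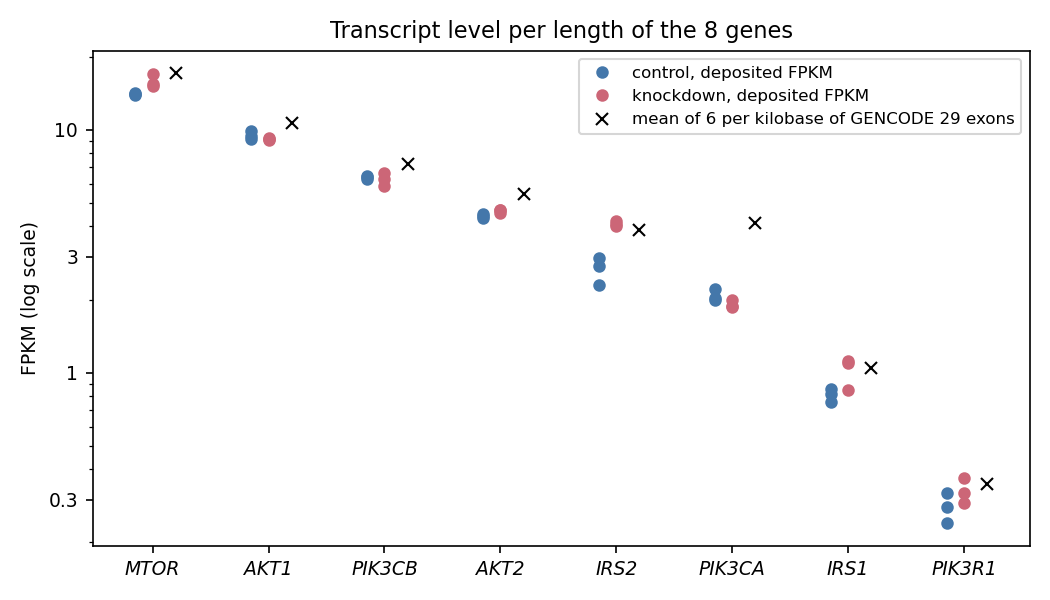
Deposited FPKM (vertical axis, log scale) of the 8 genes in the 3 control and 3 knockdown samples, with crosses for the mean of the 6 samples per kilobase of GENCODE release 29 exons. MTOR is highest at a mean of 14.9 FPKM and PIK3R1 lowest at 0.303, and the cross lies far above the points for PIK3CA alone.

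IRS2 (ENSG00000185950, chromosome 13, 109752695 to 109786583, minus strand, GRCh38) encodes an adaptor that carries the insulin signal in hepatocytes. Control replicates 1 to 3 gave 1596, 1782 and 1340 counts, and knockdown replicates 1 to 3 gave 2584, 2570 and 2630. Every knockdown sample was above every control sample, and the knockdown samples lay close together. The mean rose from 25.2 ± 3.14 to 37.6 ± 0.734 CPM (SD, n = 3). On the log2 scale this was a fold change of 0.58 (SE 0.085, 95% interval 0.38 to 0.77, edgeR, adjusted p = 0.0013). When any 1 sample was omitted it stayed between 0.48 and 0.66, with an adjusted p of at most 0.0097. No other gene of the table overlaps IRS2. Of all tested genes, 15.8% had a larger absolute log2 fold change.

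IRS1 (ENSG00000169047, chromosome 2, 226731317 to 226799759, minus strand), the related adaptor, had control counts of 607, 560 and 590 and knockdown counts of 880, 820 and 666. As CPM they were 9.81, 8.81 and 9.61 against 12.5, 12.2 and 9.52. Knockdown replicates 1 and 2 were above the control group, and knockdown replicate 3 lay within it. The log2 fold change was 0.28 (SE 0.12, 95% interval 0.01 to 0.55, adjusted p = 0.13 from edgeR), which was not called. Without knockdown replicate 3 it was 0.40 and the adjusted p was 0.033.

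PIK3CA (ENSG00000121879, chromosome 3, 179148114 to 179240093, plus strand), a catalytic subunit often activated by mutation in cancers, had 43.5, 39.9 and 40.6 CPM in control and 38.4, 36.4 and 36.3 CPM in knockdown samples. All knockdown values were lower, by a small margin. The log2 fold change was -0.16 (SE 0.053, adjusted p = 0.058 from edgeR), short of the threshold. The longest PIK3CA transcript has a GC content of 34.8%, and only 1.59% of tested genes had a lower one. After removal of the trend on GC content in every library, it stood at -0.05 (adjusted p = 0.55 from edgeR). DESeq2 gave -0.16 with an adjusted p of 0.045. The edgeR fits with the replicate number as a block and with a mean count of 50 or more also called PIK3CA lower. Of the genes that overlap PIK3CA, KCNMB3 on the opposite strand had 46 to 118 counts per sample, or 2.67% of the counts of PIK3CA.

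PIK3CB (ENSG00000051382, chromosome 3, 138652698 to 138834928, minus strand), the other widely expressed catalytic subunit, had 56.7, 58.0 and 59.5 CPM in control and 55.3, 58.5 and 51.8 CPM in knockdown samples. These groups overlapped. Their log2 fold change was -0.07 (95% interval -0.18 to 0.04, adjusted p = 0.33 from edgeR) and 0.0023 with the GC trend removed. PIK3R1 (ENSG00000145675, chromosome 5, 68215756 to 68301821, plus strand), which stabilizes and restrains the catalytic subunits, had only 195 to 314 counts per sample. Its values were 3.96, 3.07 and 3.62 CPM in control and 4.48, 3.55 and 3.87 CPM in knockdown samples. With a log2 fold change of 0.16 it had a wide 95% interval of -0.20 to 0.52 (adjusted p = 0.53 from edgeR), and a rise of up to 43.2% or a drop of up to 12.7% lies within the interval.

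AKT1 (ENSG00000142208, chromosome 14, 104769349 to 104795679, minus strand), the AKT kinase tied most to growth and survival, had 121, 128 and 120 CPM in control and 116, 115 and 114 CPM in knockdown samples. The groups did not overlap, but the difference was small. On the log2 scale it was -0.10 (SE 0.036, adjusted p = 0.084 from edgeR). Its transcript is rich in GC (62.1%, above 91.3% of tested genes), and with the GC trend removed it came to -0.17 (edgeR, adjusted p = 0.0088), past the threshold that it otherwise missed. AKT2 (ENSG00000105221, chromosome 19, 40230317 to 40285536, minus strand), the AKT kinase tied most to insulin action, had 79.6, 83.0 and 82.2 CPM in control and 81.3, 83.7 and 83.4 CPM in knockdown samples. Its groups overlapped, and the 95% interval of the log2 fold change with TMM scaling was -0.06 to 0.10 (adjusted p = 0.72 from edgeR). Its ends stand for a drop of 3.87% and a rise of 7.18%, and it does not cover the choice of scaling. With the GC trend removed the log2 fold change was -0.030 (SE 0.034). By edgeR with TMM the change of AKT2 was the smallest among the 8 genes, while with the GC trend removed that of PIK3CB was smaller.

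MTOR (ENSG00000198793, chromosome 1, 11106535 to 11262551, minus strand), the kinase at the centre of both mTOR complexes, had 195, 197 and 201 CPM in control and 231, 211 and 207 CPM in knockdown samples. All knockdown samples were higher, and knockdown replicate 1 was highest. On the log2 scale the difference was 0.13 (SE 0.044, 95% interval 0.03 to 0.23, adjusted p = 0.060 from edgeR), just short of the threshold. It was 0.08 without knockdown replicate 1 and 0.16 without knockdown replicate 3, where the adjusted p was 0.040. Scaling by library size alone gave 0.18 (adjusted p = 0.016 from edgeR). The 4 genes that overlap MTOR on the opposite strand had at most 5 counts in any sample.

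**Figure D3:**
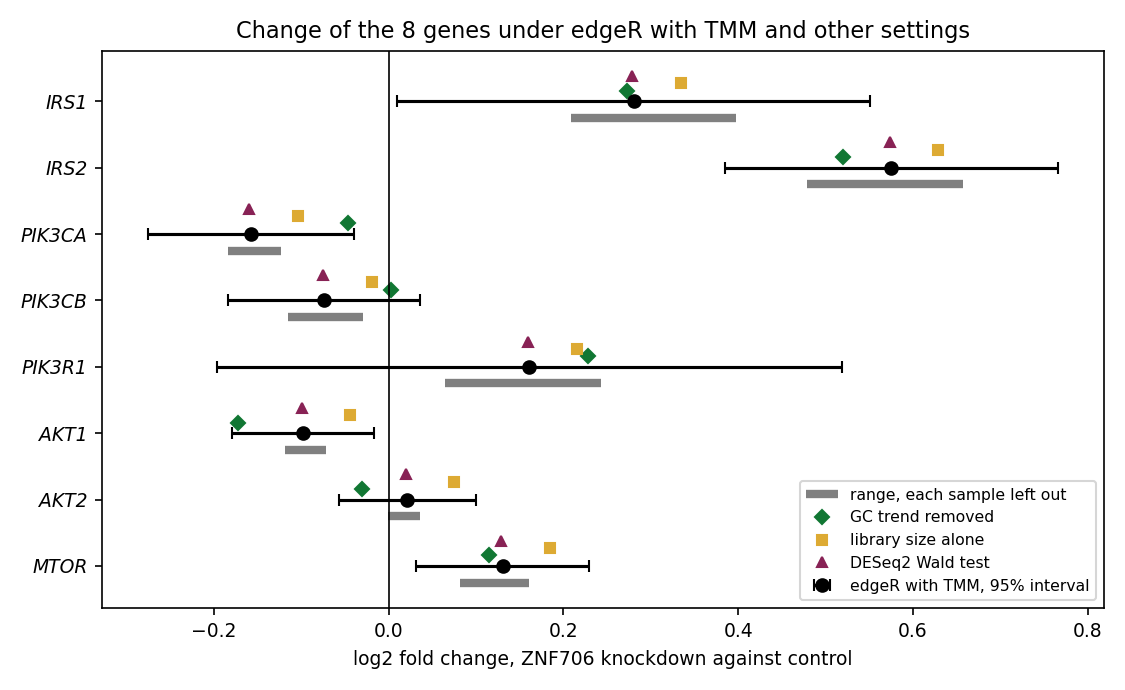
Log2 fold change (horizontal axis) of the 8 genes, knockdown against control. Black points are edgeR with TMM and their 95% intervals, grey bars are the range with each sample left out in turn, and coloured marks are 3 other settings. IRS2 lies between 0.48 and 0.66 with each sample left out, and the green diamond of the fit with the GC trend removed moves PIK3CA from -0.16 to -0.05 and AKT1 from -0.10 to -0.17.

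Ratios of counts within a library do not depend on how libraries are scaled. Of the 4 ratios tested, the groups were apart for AKT1 to AKT2 alone. Control values of this ratio were 1.52, 1.54 and 1.46 and knockdown values 1.43, 1.37 and 1.37, a difference of -0.12 on the log2 scale (exact two-sided permutation p = 0.1, which no arrangement of these samples can go below, and 0.4 adjusted over the 4 ratios). The IRS2 to IRS1 ratio was 2.63, 3.18 and 2.27 in control and 2.94, 3.13 and 3.95 in knockdown samples. These values overlapped (difference 0.31 on the log2 scale, exact permutation p = 0.3), so that a rise of IRS2 beyond that of IRS1 was not shown. The PIK3CA to PIK3CB ratio (difference -0.08, exact permutation p = 0.6) and the ratio of PIK3R1 to the sum of both catalytic subunits (difference 0.27, exact permutation p = 0.2) overlapped too.

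The genes around these 8 were followed in 13 lists with 192 genes besides the 8, of which 174 were tested. Of these, 27 were higher and 46 lower with an adjusted p below 0.05, or 42.0%, beside 22.8% of all tested genes and 33.6% of those as deeply covered as the 8. The balance depended on scaling, with 33 higher and 29 lower under library size alone, and 24 higher and 38 lower with the GC trend removed. The share depended on the call rule. By the study's criteria 28 of the 174 were called (15 higher and 13 lower), or 16.1%, beside 15.5% of all tested genes. The median log2 fold change was -0.05 (0.0022 under library size alone), and 0.01 over all tested genes.

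Among receptors and ligands, 5 of 14 tested genes were higher and 1 lower. ERBB2, a receptor of the EGF family, had 1580, 1561 and 1523 counts under control conditions and 2683, 2431 and 2560 under knockdown (log2 fold change 0.57, SE 0.056). Its groups were far apart. PDGFRB (0.68), EGFR (0.32), IGF1R (0.22) and MET (0.20) rose too, and MET was the most abundant gene of the list (26.9 FPKM). IGF1R, the receptor for insulin-like growth factors and a partner of IRS proteins, had 19225, 19899 and 19918 counts against 26802, 24645 and 24917 (adjusted p = 0.0022 from edgeR). The insulin receptor INSR had a log2 fold change of -0.15 and was not called (adjusted p = 0.072 from edgeR). IGF2, a growth factor of fetal liver, fell by 1.23 on the log2 scale, from 256, 271 and 200 counts to 147, 103 and 94. Limma without a filter called no gene of this list lower. The list of adaptors also held other signalling proteins, such as the phosphatase PTPN11. In it, 2 of 16 tested genes were higher (SH2B1 at 0.32 and GAB2 at 0.31) and 5 lower. The falls were led by SOS1 (-0.30), SOS2 (-0.26) and GRB2 (-0.21), which link receptors to RAS. There were 3 lower under library size alone and 7 with DESeq2. The call of GAB2 was lost with the GC trend removed (edgeR, adjusted p = 0.068) and held in 1 of 6 fits with a sample removed. PTPN11, the most abundant gene of this list (64.6 FPKM), was among those called lower (-0.14, edgeR, adjusted p = 0.0081). IRS4, the third IRS gene of the table, had 4 counts in control replicate 3 and none in the other samples.

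Among the other PI3K genes, 1 of 9 was higher and 2 were lower. The gene that rose was PIK3CD, the catalytic subunit best known from leukocytes, with 2953, 2896 and 2981 counts under control conditions and 4466, 4250 and 4506 under knockdown. The groups were apart by far more than the spread within them (log2 fold change 0.43, SE 0.039, adjusted p = 0.00012 from edgeR). In control samples its level was 6.55, 6.20 and 6.55 FPKM, close to that of PIK3CB at 6.29, 6.37 and 6.47 FPKM, and in knockdown samples it was 8.97, 8.94 and 9.04 FPKM, above PIK3CB. PIK3C2A (-0.27, and -0.18 with the GC trend removed) fell. PIK3R4 (-0.14) was called lower, but not with the GC trend removed (edgeR, adjusted p = 0.11) or under library size alone (0.18), and in 1 of 6 fits with a sample removed. PIK3R2 (log2 fold change -0.11) and PIK3R3 (0.05) were not called, and for PIK3R2 knockdown replicate 3 had 3823 counts where the other samples had 4938 to 5927. PIK3CG was not analysed here. Of the phosphatases that oppose the pathway, 2 of 14 were higher and 3 lower. INPPL1, which removes a phosphate from the PI3K product, rose (0.32), and PPP2R1B (-0.24) and PPP2CA (-0.21, the most abundant at 44.4 FPKM) of protein phosphatase PP2A fell. Of the same phosphatase, PPP2R1A (0.11) was called higher, but in 0 of 6 fits with a sample removed and not with the GC trend removed (edgeR, adjusted p = 0.091). PPP2CB (-0.14) was called lower, but in 2 of these 6 fits and not under library size alone (0.13).

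None of the 8 tested genes of the list with PDPK1 and modulators of AKT was called by edgeR at an adjusted p below 0.05, and none of the 5 genes of the TSC complex and RHEB. At an unadjusted p below 0.05 there was 1 gene in each list (PDPK1 and RHEBL1), and DESeq2 called 0 in the first list and 1, lower, in the second. With the GC trend removed, edgeR called 1 gene of the first list lower. TRIB3 (21.0 FPKM) and RHEB (29.6 FPKM) were the most abundant genes of these lists. Of the 10 subunits of the mTOR complexes, 4 were higher and 1 lower. DEPTOR, an inhibitor of both complexes, had 147, 146 and 140 counts under control conditions and 322, 275 and 266 under knockdown. This was the largest rise of the list (log2 fold change 0.84, SE 0.15). AKT1S1 (0.30), another inhibitory subunit, and MLST8 (0.24, and 0.15 with the GC trend removed) also rose, and RICTOR, the scaffold of mTORC2, fell (-0.28, and -0.18 with the GC trend removed). Limma without a filter called no subunit lower. PRR5L (0.22) was called higher (edgeR, adjusted p = 0.047), but in 0 of 6 fits with a sample removed and not with the replicate block. RPTOR, the scaffold of mTORC1, had a log2 fold change of -0.03 with a 95% interval of -0.12 to 0.05. TTI1 was the most abundant gene here (14.6 FPKM).

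In the list on amino acid sensing, 4 of 26 genes were higher and 6 lower. WDR59 (0.47), LAMTOR4 (0.34) and LARS1 (0.26) rose most, LAMTOR4 with a call in 2 of 6 fits with a sample removed. RRAGA, the most abundant (54.6 FPKM), was called lower (-0.17, edgeR, adjusted p = 0.0092). Its call held with the GC trend removed, under library size alone and in 6 of 6 fits with a sample removed. The lower calls of SLC38A9 (-0.28), ITFG2 (-0.20) and LAMTOR3 (-0.19) did not hold throughout. With the GC trend removed, SLC38A9 (edgeR, adjusted p = 0.16) and LAMTOR3 (0.25) were not called, under library size alone none of the 3 was, and with a sample removed they were called in 1, 0 and 2 of 6 fits. Over the list, 3 were higher and 3 lower with the GC trend removed, 7 and 1 under library size alone, and 2 to 4 higher and 1 to 3 lower with a sample removed. Among the 7 tested stress-induced inhibitors of mTORC1, DDIT4 was higher and 2 genes were lower. DDIT4, which acts through the TSC complex, was the most abundant gene of this list (286 FPKM) and had 33057, 36848 and 32786 counts under control conditions and 51186, 53821 and 58005 under knockdown. PRKAA2, a catalytic subunit of AMPK, fell by 0.55 on the log2 scale and SESN2 by 0.27, the latter with a call in 4 of 6 fits with a sample removed.

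The list of substrates of the mTOR complexes also held RPS6 and EIF4B, which are phosphorylated by kinases downstream of mTOR. In this list, 2 of 15 tested genes were higher and 8 lower. ULK1 (0.48), which starts autophagy, and TFEB (0.61), a transcription factor for lysosomal genes, rose. TFE3 (-0.39), its relative, EIF4B (-0.22) and RPS6KB1 (-0.21, and -0.13 with the GC trend removed), which act in translation, fell. RPS6, the most abundant (351 FPKM), was called lower (-0.13), but not under library size alone (-0.08, edgeR, adjusted p = 0.14) or with the GC trend removed (0.16), and in 2 of 6 fits with a sample removed. The 8 lower calls became 4 under library size alone, 5 with the GC trend removed and 5 to 7 with a sample removed. Of 20 lysosomal genes that TFEB and TFE3 are known to drive, 2 were higher, NEU1 (0.28) among them, and 9 lower. PSAP (-0.38), the most abundant at 170 FPKM, and CTSD (-0.19) were among those that fell without overlap between the groups. Under library size alone 5 were lower, with a sample removed 6 to 8, and with limma and no filter 4.

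AKT substrates were divided, with 3 of 16 higher and 3 lower. With a sample removed 1 to 3 were higher and 3 lower, and limma without a filter called 1 higher and 1 lower. BAD, a proapoptotic protein that AKT inhibits, had 552, 675 and 560 counts under control conditions and 1086, 1114 and 1097 under knockdown (log2 fold change 0.74, SE 0.097). PFKFB2 (0.23) and ACLY (0.15, the most abundant at 46.7 FPKM) were called higher, but each in 1 of 6 fits with a sample removed, and ACLY not with the GC trend removed (edgeR, adjusted p = 0.060). RALGAPA1 (-0.35), GSK3A (-0.19) and MDM2 (-0.19) fell. The transcription factors FOXO1 (-0.12) and FOXO3 (0.01) were not called. In the list of FOXO target genes, which did not include IRS2, itself a known FOXO target, 1 of 20 tested genes was higher (BCL2L11 at 0.21, called in 2 of 6 fits with a sample removed) and 7 were lower, beside 12.4% of all tested genes lower. In both directions together 40.0% of the tested genes of the list were called. This stood beside 22.8% of all tested genes and 33.6% of those as deeply covered as the 8. With limma and no filter, 3 were lower, beside 3.38% of all genes tested in that fit, which kept genes with few counts. PDK4, a kinase that restrains glucose oxidation, had 2217, 1602 and 1925 counts against 1220, 1206 and 1251 (log2 fold change -0.79, SE 0.11). BCL6 fell by 0.50. PCK1, an enzyme of gluconeogenesis, had 12, 29 and 37 counts against 8, 4 and 7 (log2 fold change -2.17), and the call held in 1 of the 6 fits with a sample removed. CDKN1B was the most abundant of the list (39.7 FPKM) and was not called.

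List medians moved with the setting. Over all fits the median of FOXO target genes lay between -0.21 and -0.04 (-0.18 by edgeR with TMM, -0.10 without control replicate 1), that of lysosomal genes between -0.15 and -0.05 (-0.12 by edgeR with TMM, -0.08 without knockdown replicate 2), that of mTOR substrates between -0.16 and -0.08 and that of receptors and ligands between 0.09 and 0.20.

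**Figure D4:**
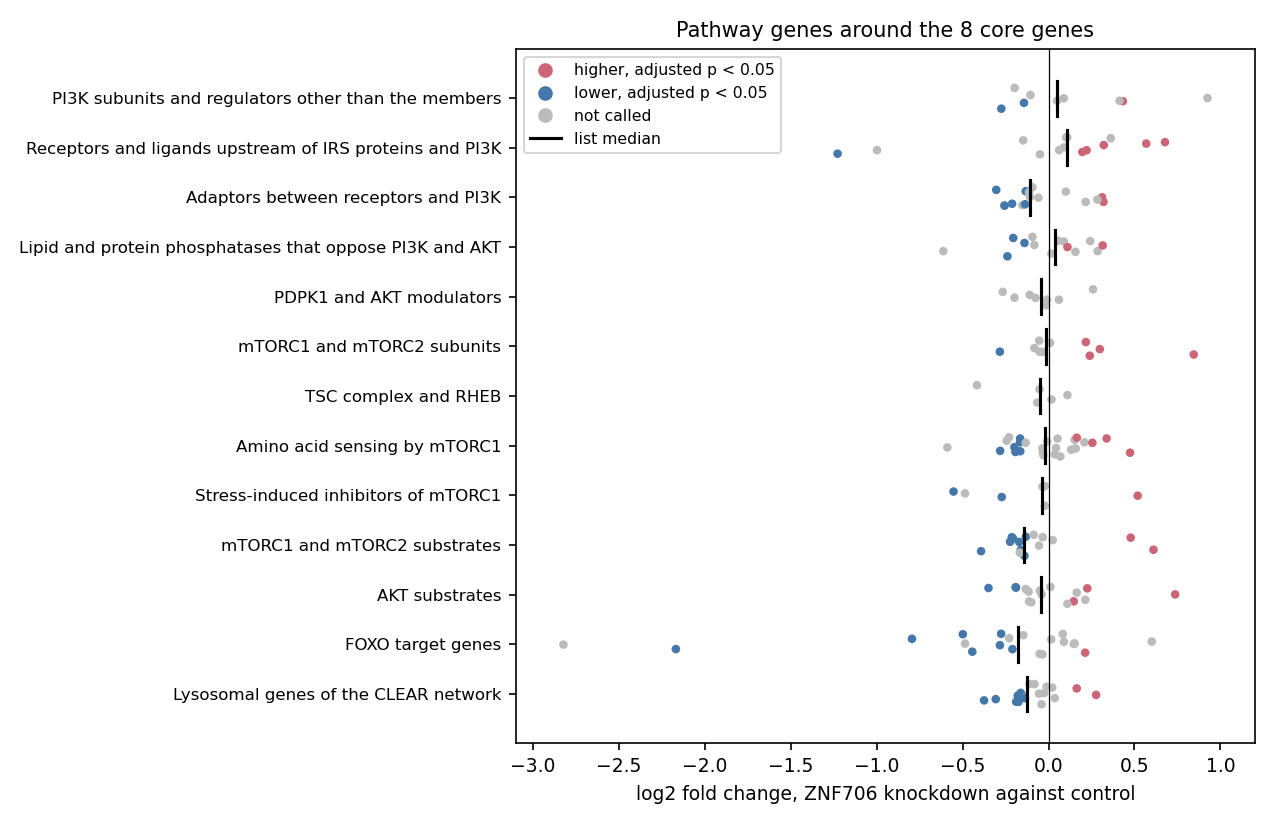
Log2 fold change (horizontal axis) of each tested gene in the 13 pathway lists, with red for genes called higher, blue for genes called lower, grey for genes not called and a black bar for the list median, all by edgeR with TMM. Medians are -0.14 for mTOR substrates, -0.18 for FOXO target genes and 0.11 for receptors and ligands, and they moved with the setting.

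Over the 6 samples, genes of these lists whose log2 CPM followed each of the 8 closely were found among 181 candidates. For IRS2 they were INPPL1 (Pearson r = 0.98) and BAD (0.97), for IRS1 GADD45A (0.91), for PIK3CA SLC38A9 (0.98) and RICTOR (0.95), and for MTOR PIK3IP1 (0.99) and FGFR4 (0.95). AKT1 was close to GSK3A (0.95), AKT2 to KPTN (0.94) and LAMTOR2 (0.83), PIK3CB to GRB7 (0.91) and INPP5E (0.84), and PIK3R1 to FGFR1 (0.93) and FOXO4 (0.82). These values describe 6 libraries that share their depth, their scaling and the split into 2 groups. Each pair was among the 2 highest of 181 candidates, a choice that favours high values. With the group means removed, r for IRS2 was 0.84 with INPPL1 and 0.67 with BAD, the lowest of these pairs. For MTOR with PIK3IP1 it was 0.98, and knockdown replicate 1 had the highest CPM of both genes. PIK3IP1 had 89 counts there and 25 to 48 in the other samples.

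The label of the cells was compared with markers. KRT18, an epithelial keratin, had a mean of 266 FPKM and VIM, a mesenchymal marker, 173 FPKM, while hepatocyte markers were low. ALB, the most abundant of 13 hepatocyte genes in the table, had 189, 899 and 882 counts under control conditions and 587, 635 and 138 under knockdown, HNF4A had 27 to 122, and G6PC1 and TAT had too few to be tested. The summed level of the hepatocyte genes was 5.31, 10.1 and 11.6 FPKM in control and 4.10, 4.59 and 4.24 FPKM in knockdown samples, with 0 of 11 tested genes higher and 2 lower (SERPINA1 at -1.47 and APOB at -0.98, called in 2 of 6 fits with a sample removed). The lower hepatocyte genes were 3 with DESeq2, 4 with the replicate block and 1 to 3 with a sample removed. Of the 5 epithelial genes, edgeR with TMM called 0, where 3 had an unadjusted p below 0.05. DESeq2, the replicate block and the fit without control replicate 1 each called 1 higher and 1 lower, library size alone and a minimum mean count of 50 each 1 higher, and the fit with the GC trend removed 1 lower. Of 6 mesenchymal genes, 2 were higher (PDGFRB, and COL1A1 at 0.20, or 0.13 with the GC trend removed). Of 5 tested blood cell and endothelial genes, CD68 was higher (0.64) and CDH5 lower (-0.70). The sum of this list was 12.6 to 13.2 FPKM in the control samples and 18.3 to 20.1 FPKM in the knockdown samples. It consisted mainly of CD68 (mean of 13.8 FPKM over all 6 samples, both groups together). PTPRC, which marks leukocytes, had 8, 8 and 0 counts with the control vector and none with the knockdown. The part of these markers in the rise of IRS2 and PIK3CD was not tested.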

How the data were processed

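RNA was sequenced on the Illumina NovaSeq system. Per the labels and the methods of the study, adapters were removed with cutadapt 1.9, quality was examined with FastQC and reads were mapped to the human genome (GRCh38) with HISAT2. The counting program, its use of strand and the annotation release are not given in the sources used here. The authors deposited raw counts per gene, without normalization, and FPKM values, scaled by gene length and library size. Of 32092 genes also found in GENCODE release 29, 99.9% lay at overlapping positions.

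Genes passing filterByExpr were tested on their counts with TMM scaling and the quasi-likelihood test of edgeR 4.0.16 (R 4.3.3), with a term for the group only and Benjamini-Hochberg adjustment over 18390 genes. The SE was taken from the fold change and its F value. The 8 genes and the lists were chosen with earlier results of these data known. Named genes are the 8, ZNF706, a set of related genes listed with the rule (other isoforms, and INSR, IGF1R, RPTOR, RICTOR, FOXO1 and FOXO3 among them), in each list the 3 largest called rises and falls without overlap and the most abundant gene, and the 2 genes most like each of the 8. PRR5L, HNF4A, PTPRC, G6PC1, TAT, PIK3R5, PIK3R6, PDPK1 and RHEBL1 lie outside this rule and were named after their values were seen. Some genes that the rule names are not reported here.

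Simulated counts with known changes were used to test the code. Replicates differed by more than sampling noise (chi-square per gene 12.8 to 22.2 within groups, 45.9 to 53.9 between). Alternatives were DESeq2 1.42.0, its size factors in edgeR, library size alone, omission of the filter, a minimum mean count of 50, a block for the replicate number, each library's lowess trend on GC content as an offset, limma 3.58.1 on log2(FPKM + 0.1) or log2(FPKM + 1), the study's criteria and each sample left out.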

Additional observations from a re-analysis of the deposited data

How the results depend on the processing

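IRS2 was called higher and ZNF706 lower under each alternative named here. DESeq2 called 3 of the 8 genes (2 higher, 1 lower), with PIK3CA at -0.16 and MTOR at 0.13 (adjusted p = 0.018). A mean count of at least 50 also called 3 (2 higher, 1 lower), with PIK3CA at -0.15 and MTOR at 0.14. Library size alone called 2 of the 8, both higher, with MTOR at 0.18, and it made 1518 genes lower in all and 29 pathway genes lower. With the GC trend removed, 2 were called (1 higher, 1 lower), with AKT1 at -0.17, while PIK3CB (0.0023) and AKT2 (-0.030) changed sign. limma on log2(FPKM + 0.1) and on log2(FPKM + 1), both at a mean FPKM of at least 1, called 2 of the 8, both higher, with MTOR at 0.18 and 0.17, and 29 and 30 pathway genes lower. These 2 fits gave no value for IRS1 and PIK3R1. Without a filter, limma called 2668 genes (1039 lower), with 45 pathway genes (21 lower), and edgeR called 1253 genes higher. The study's criteria made 1081 genes lower, and called 28 pathway genes, 15 higher and 13 lower. The causes of these differences were not tested.

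With each sample left out in turn, 1 to 3 of the 8 genes were called (1 to 3 higher, 0 lower), with 3 (IRS1, IRS2 and MTOR) without knockdown replicate 3. The calls over all genes ranged from 2648 to 3424, with 1148 to 1485 higher and 1500 to 1939 lower, and over pathway genes from 51 to 60, with 18 to 23 higher and 33 to 38 lower. The log2 fold change ranged from 0.21 to 0.40 for IRS1, -0.18 to -0.12 for PIK3CA, -0.12 to -0.03 for PIK3CB, 0.06 to 0.24 for PIK3R1, -0.12 to -0.07 for AKT1, -0.00010 to 0.036 for AKT2 and 0.081 to 0.16 for MTOR.

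Samples with the same replicate number did not deviate together (r = 0.027, -0.028 and 0.029 over 14125 genes), and not every sample was closest to its own number, so the numbers were not taken to pair the samples. With the replicate number as a block, 2 of the 8 genes were called (1 higher, 1 lower), with PIK3CA at -0.16 (adjusted p = 0.047 from edgeR), and 4361 genes in all against 4192. With the block and the GC trend removed, 2 were called (1 higher, 1 lower), with AKT1 at -0.17, PIK3CB at 0.0015 and AKT2 at -0.030. The paired form of the exact test of ratios cannot give a p below 0.25.

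PIK3R1 and IRS1 had the fewest counts and the widest intervals of the 8. Whether depth or other spread between samples sets these intervals was not tested.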
